A study of Oryza sativa with 12 samples.

Results

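The response of rice panicles to heat was described for line 082, which the labels call heat sensitive. The comparison used 6 of the 12 arrays of the study, picked by their titles and by no measured value: 3 arrays of 082 panicles held for 5 days at a high temperature (days at 37 °C, nights at 30 °C) and 3 arrays of 082 panicles at an optimal temperature (days at 30 °C, nights at 25 °C). The other 6 arrays hold line 252, called heat tolerant, under the same 2 regimes with 3 arrays each, and are used only to show where line 082 differed from it. Each array carries RNA from whole panicles and is labelled a biological replicate. The pedigree of the lines, the stage of the panicles, the hour of sampling and the number of plants behind an array are not given in the labels used here.

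A panicle carries the spikelets in which rice flowers and then fills its grain. In the filling grain the endosperm lays down starch and the storage proteins glutelin and prolamin, which fold in the endoplasmic reticulum, and the embryo and the aleurone layer around the endosperm build up late embryogenesis abundant (LEA) proteins and lipid protectants. Heat is known in plants to raise small heat shock proteins and other chaperones through heat stress factors, and in rice to disturb anthers and grain filling. The genes were therefore parted into 42 genes of 3 grain lists (storage proteins, starch synthesis, grain and embryo maturation) and 1005 genes of 39 lists of other functions.

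The deposited values are array signals on a linear scale, 1 per probe set, a set of short oligonucleotides that reports 1 transcript. Every array had been brought to a mean of about 500.1 after a 2% trim, and its median signal was 58.6 to 68.4 on the 082 optimal arrays and 36.5 to 41.2 on the 082 high-temperature arrays. Replicates correlated at 0.948 to 0.977. Replicate 1 at optimal temperature lay nearer to the 082 high-temperature arrays (0.827 to 0.839) than the other optimal replicates did (0.753 to 0.785). The 3′/5′ ratio of Dap, a bacterial transcript added to follow labelling, was 12.9 to 15.4 on the 082 high-temperature arrays and 1.81 to 2.16 on the optimal ones, and in line 252 it was 13.3 to 14.5 and 1.65 to 1.83. Temperature and whatever set these ratios cannot be told apart. The 13 measured markers of panicle and floral organs, MADS-box genes and DL, had a summed signal of 33882 to 49822 at optimal and 77384 to 85043 at high temperature in line 082, and none of them lay under the array median on all 3 arrays of a group.

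Line 082 changed widely at high temperature. Of 33610 probe sets bright enough to test, 4788 rose (14.2%) and 7353 fell (21.9%), where a call needed an adjusted p under 0.05 in limma and a log2 change of at least 1. With 1 probe set per gene, 2980 of 16537 genes rose (18%) and 3345 fell (20.2%), and among the 2340 genes with a name 441 rose (18.8%) and 528 fell (22.6%). Falls reached further than rises: 674 probe sets fell and 85 rose by at least 4 on the log2 scale, and 87 fell and 0 rose by at least 8. On the log2 scale the median change was −0.15 over probe sets and 0.02 over genes, and the median of the called falls was −1.73 and that of the rises 1.51 over probe sets. Of the falls, 1876 probe sets (25.5%) ended under the array median on all 3 high-temperature arrays, so the size of such falls depends on the 16 that was added to every signal before the logarithm was taken. The balance of rises and falls moved with the scaling of the arrays. Quantile normalization gave 6225 rises and 5432 falls with a median change of 0.13, the 75th percentile as centre gave 6185 and 6206 (median 0.02), and the added hybridization spikes as standard gave 3943 and 8282 (median −0.27). With the brightness filter set at the 75th percentile, 3727 rose and 3484 fell. Without replicate 1 at optimal temperature 5576 probe sets rose and 7612 fell.

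Part of the response was called in both lines. In line 252, 3167 probe sets rose (9.42%) and 6523 fell (19.4%). The 1689 probe sets that rose in both lines made up 35.3% of the rises in 082 and 53.3% of those in 252, and the 3228 that fell in both made up 43.9% and 49.5%. The heat changes themselves differed between the lines at 7828 probe sets, 4128 of them with the higher change in 082 (12.3%) and 3700 with the lower (11%). The lines stood apart mainly at optimal temperature, where 4066 probe sets were higher in 082 (12.1%) and 5142 lower (15.3%), against 382 (1.14%) and 209 (0.622%) at high temperature. These last contrasts use the same 082 arrays as the heat contrast. The signal of 18S ribosomal RNA also separated the lines at optimal temperature, at 12880.0 to 19241 in 082 and 506 to 667 in 252, and was 6468 to 8523 on the 6 high-temperature arrays. Its part in these differences was not tested.

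**Figure D1:**
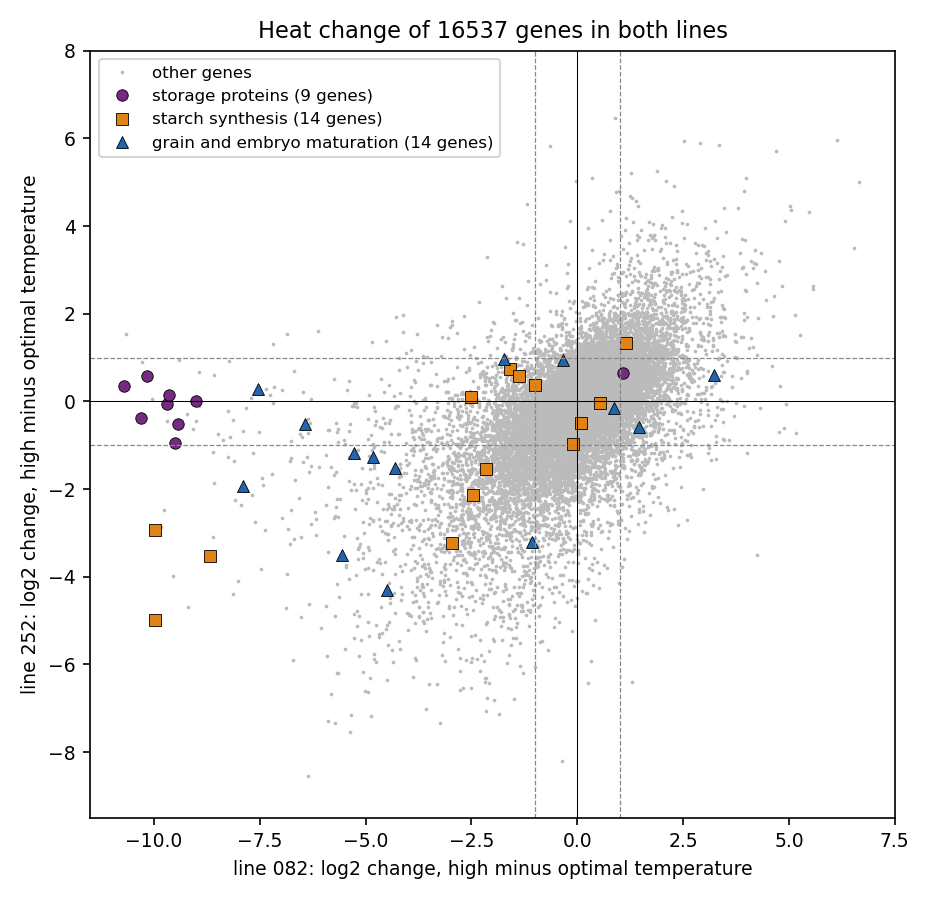
Log2 change from optimal to high temperature in line 082 (x axis) and line 252 (y axis) for 16537 genes, grey points, with the 37 tested members of the grain lists as coloured symbols and dashed lines at a change of 1 in either direction. Of the 9 storage protein genes, 8 lie far below −1 in line 082 and between −1 and 1 in line 252.

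Grain genes gave many of the steepest falls of line 082. Storage proteins had 10 members on the array, of which 9 were tested: 8 fell and 1 rose, with a median change of −9.65 against 0.02 over all genes. GLUA-1, which encodes a glutelin, had signals of 31875, 43372 and 40020.0 at optimal and 7.89, 0.981 and 13.2 at high temperature. It fell by 10.71 ± 0.50 on the log2 scale (SE; adjusted p = 1.6e-08). In line 252 the same probe set gave 22.1, 1.42 and 21.2 at optimal and 75.4, 15.8 and 1.35 at high temperature. GLUA-1 was thus bright on the 3 optimal arrays of line 082 and dim on the other 9. The glutelin genes GLUA-3 (−10.29 ± 0.50), GLUD-1 (−10.16 ± 0.27) and GLUB-5 (−9.69 ± 0.29) and the prolamin gene PROLM25 (−9.51 ± 0.43) had the same pattern, as had the seed allergen genes RA17 (−9.65 ± 0.41), RA5 (−9.42 ± 0.40) and RA14 (−9.002 ± 0.61). The highest signal of these 8 genes on any of the 9 other arrays was 156, and the lowest on the 082 optimal arrays was 8307. The brightness filter asked for 3 of the 12 arrays, which the 3 optimal arrays of 082 alone could meet, so it favours genes bright there. Glutelin genes are near copies of each other, so probe sets may share transcripts. For GLUA-2 the probe sets disagreed: that with the highest mean on the log2 scale, which stands for the gene here and makes it the rise of the list, went up from 449.9, 282 and 227 to 660.3, 691 and 655 (1.08 ± 0.21; 0.88 and no call without replicate 3 at optimal temperature), and another fell by 8.78 ± 0.28, from a mean of 30712 to 54.0. GLUB-4 was under the brightness filter, with signals of 16.2, 19.3 and 26.5 and 18.2, 22.3 and 17.1.

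Starch synthesis split by isoform in line 082. Of 15 members 14 were tested: 9 fell, 1 rose and 4 were not called (median −1.88). GBSS-I, the granule-bound synthase that makes amylose, had signals of 30191, 36100.0 and 35516 at optimal and 3.98, 23.9 and 30.7 at high temperature, a change of −9.99 ± 1.28 (adjusted p = 3.6e-05), which became −8.68 with 64 and −11.065 with 1 added to the signals. The soluble synthase gene SSII-3 gave 7422, 12285 and 11871 and 3.23, 2.71 and 27.3 (−8.69 ± 1.13), and the sucrose synthase gene SUS3 gave 19105, 22809 and 23570.0 and 8.85, 4.83 and 4.01 (−9.96 ± 0.76). For none of the 3 did the temperatures overlap, though another probe set of SSII-3 was not called (−1.13 ± 0.49). In line 252 the 3 genes were brightest on replicate 1 at optimal temperature, and SUS3 was well above the array median on all 3 optimal arrays: GBSS-I read 11646, 216 and 76.6, SSII-3 4885, 92.2 and 73.9 and SUS3 10516, 1957 and 1267. Their falls in 082 exceeded those in 252 by −7.05 ± 1.81, −5.15 ± 1.60 and −4.97 ± 1.07 on the log2 scale (difference of heat changes, 082 minus 252).

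A second set of starch genes fell by less. The branching enzyme gene SBE fell from 22159, 27200.0 and 26508 to 4474, 4563 and 4101 (−2.52 ± 0.12), the ADP-glucose pyrophosphorylase small subunit gene AGPS2 by 1.60 ± 0.21, the sucrose synthase gene SUS4 by 1.39 ± 0.25 and SUS1 by 2.97 ± 0.34. SUS5 (−2.46 ± 0.42, under the array median on 2 of the 3 high-temperature arrays) and the disproportionating enzyme gene DPE1 (−2.15 ± 0.25) also fell. Of these, SUS1, SUS5 and DPE1 fell in line 252 too, while SBE (0.10 ± 0.12), AGPS2 (0.74 ± 0.21) and SUS4 (0.58 ± 0.25) did not pass there, and their heat changes differed between the lines (differences −2.62, −2.33 and −1.97). SSI changed by −0.9988 ± 0.21, just short of the minimum of 1, and reached it in 6 of the other settings, on leaving out the first high-temperature array (−1.22) or the first optimal array (−1.06) among them. The member that rose was SSII-1, from 744, 1246 and 628 to 1975, 1845 and 1855 (1.16 ± 0.21), and it rose in line 252 as well (1.34 ± 0.21). Its call in 082 was lost without replicate 3 at optimal temperature (0.96). SSII-2 (0.55 ± 0.30), FLO6 (0.09 ± 0.26) and DPE2 (−0.11 ± 0.11) were not called, with overlapping arrays, and SUS6 missed the brightness filter.

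Genes of grain and embryo maturation numbered 17, of which 14 were tested: 9 fell, 2 rose and 3 were not called (median −4.40). Among transcription factors, NF-Y4, a nuclear factor Y subunit of the endosperm, went from 5454, 6387 and 9514 to 31.4, 8.79 and 4.65 (−7.90 ± 0.68). VP1, which turns on embryo maturation genes, went from 785, 829 and 1814 to 12.1, 17.2 and 6.60 (−5.28 ± 0.58), and LFL1, a B3-domain factor, fell by 5.55 ± 0.36. The embryo and aleurone products followed: the LEA gene Emp1 had 7111, 6526 and 13186 and 83.7, 65.4 and 99.9 (−6.44 ± 0.26), and R1C-Prx, a seed peroxiredoxin, fell by 7.53 ± 0.30. Sugar supply to the grain was represented by the exporters SWEET11 (−4.31 ± 0.83) and SWEET15 (−4.82 ± 0.77) and the cell wall invertase CIN2 (−4.49 ± 0.52). SWEET11 read 18399, 23832 and 24606 at optimal and 4174, 441 and 712 at high temperature, so the high-temperature arrays stayed above the array median. CPDK1, the pyruvate orthophosphate dikinase of the grain, fell by 1.74 ± 0.16. In line 252, 3 of these genes also fell: CIN2 (−4.30 ± 0.52), LFL1 (−3.49 ± 0.36) and NF-Y4 (−1.93 ± 0.68). Over the list 7 heat changes were lower and 3 higher in 082. For CIN2 (−0.19 ± 0.73) and SWEET11 (−2.79 ± 1.18) the difference between the lines was not called.

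The members of the maturation list that rose were 2 alpha-amylase genes, whose enzymes break starch down. AMY1.3 went from 19.5, 21.6 and 13.4 to 125, 517 and 423 (3.24 ± 0.54; adjusted p = 2.7e-04) and AMY1.5 from 77.7, 81.8 and 38.8 to 236, 133 and 263 (1.46 ± 0.39). Neither passed in line 252 (0.60 ± 0.54 and −0.58 ± 0.39), and the heat changes differed by 2.64 ± 0.76 and 2.04 ± 0.56. AMY1.1, AMY1.2 and AMY1.4 missed the brightness filter and were not tested. AMY1.4 ran the other way, with 935, 44.4 and 703 at optimal and 3.30, 1.44 and 2.17 at high temperature, and its optimal arrays were bright on 2 of 3. The exporter gene SWEET4 (0.86 ± 0.24) and the bZIP factor gene RISBZ5 (−0.34 ± 0.37) were not called, and neither was MADS29 (−1.08 ± 0.59; adjusted p = 0.14), a factor of the degenerating maternal tissue around the young grain, which passed with the 082 arrays fitted alone (−1.08) or without replicate 3 of line 252 at high temperature (−1.08). SWEET4 passed without replicate 1 at optimal temperature (1.04).

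**Figure D2:**
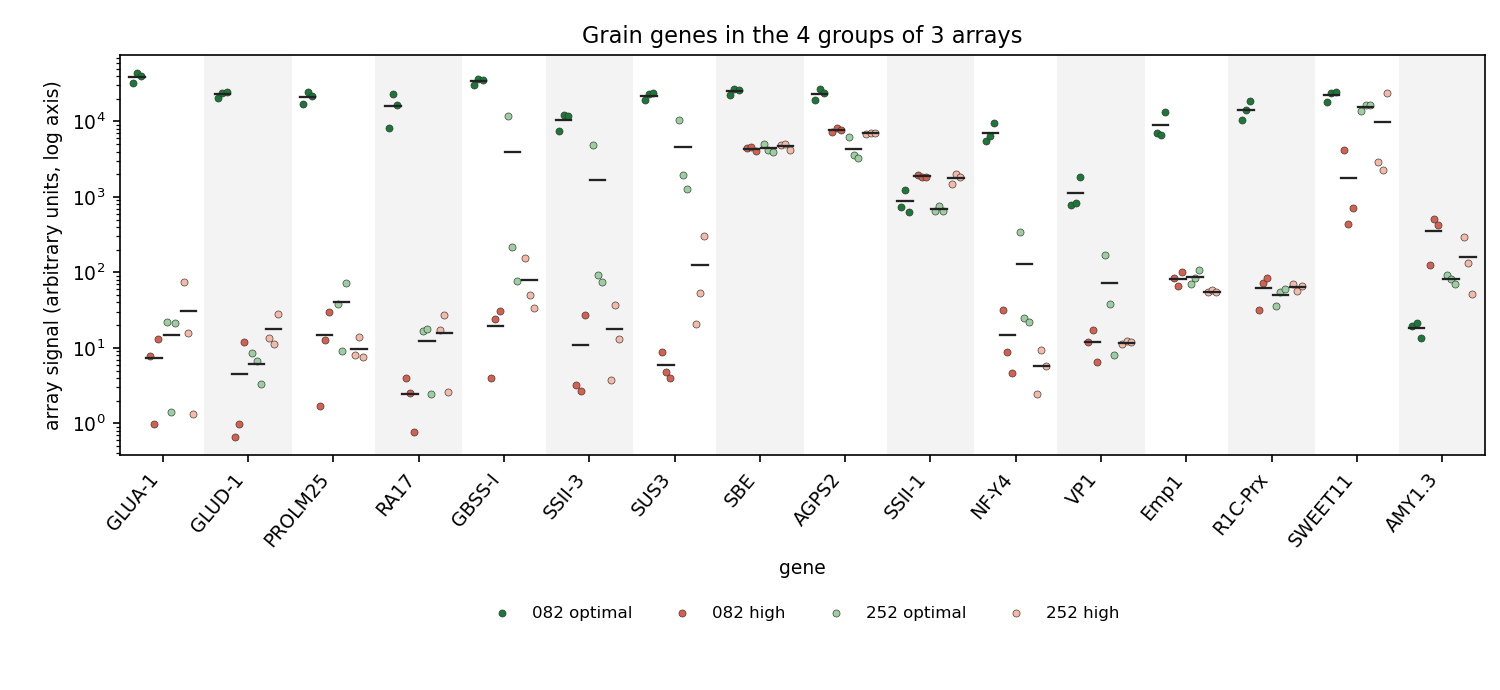
Array signal (log axis) of 16 grain genes, each point 1 array and each bar the mean of 3, in line 082 at optimal (dark green) and high temperature (red) and in line 252 at optimal (light green) and high temperature (pink). GLUA-1 to RA17 are bright only on the 3 arrays of 082 at optimal temperature, GBSS-I and SSII-3 also on 1 array and SUS3 on all 3 arrays of 252 at optimal temperature, and SSII-1 and AMY1.3 are higher at high temperature in line 082.

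Outside the grain lists, TIP3-1, a tonoplast aquaporin of seeds, went from 17083, 31424 and 32110.0 to 171, 243 and 96.7 (−7.20 ± 0.33) and rose in line 252 (1.305 ± 0.33), a difference of −8.50 ± 0.47. The calcium-dependent kinase gene CPK23 fell by 6.76 ± 0.49, from 20075, 29208 and 27574 to 215, 270.4 and 178. VPE1, the vacuolar enzyme that cuts proglutelin into glutelin, fell by 1.81 ± 0.18, where line 252 changed by 0.90 ± 0.18.

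The endosperm markers listed for the check of tissue were 9 measured genes, all members of the grain lists described above. Their summed signal was 157140 to 207050 on the 082 optimal arrays and 707.5 to 826 on the 082 high-temperature arrays. At high temperature 8 of the 9 lay under the median on all 3 arrays. The 3 embryo and aleurone markers, also grain list members, summed to 18340.0 to 33473 and 127 to 191. In line 252 the endosperm sums were 896 to 17240.0 at optimal and 915 to 1279 at high temperature. In such whole-organ RNA, fewer cells of a type and less RNA per cell cannot be told apart, and as the stage was not given, heat and panicles of unequal stage cannot be told apart for the grain genes. The grain lists hold named genes only. Their 57 tested probe sets held 43 falls and 4 rises, 0.585% of all falls, and 18 of the 87 falls of at least 8 on the log2 scale. These counts follow the size of the lists and do not measure the part of grain tissue in the response. The 50 probe sets with the highest mean signal on the 082 optimal arrays were picked on arrays of the same contrast, which favours falls. Of these 50, 35 fell and 0 rose, 25 fell by at least 8 and 10 were in the grain lists. Leaving out the probe sets of the grain lists takes away only their own calls, which gives 4784 rises and 7310 falls.

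**Figure D3:**
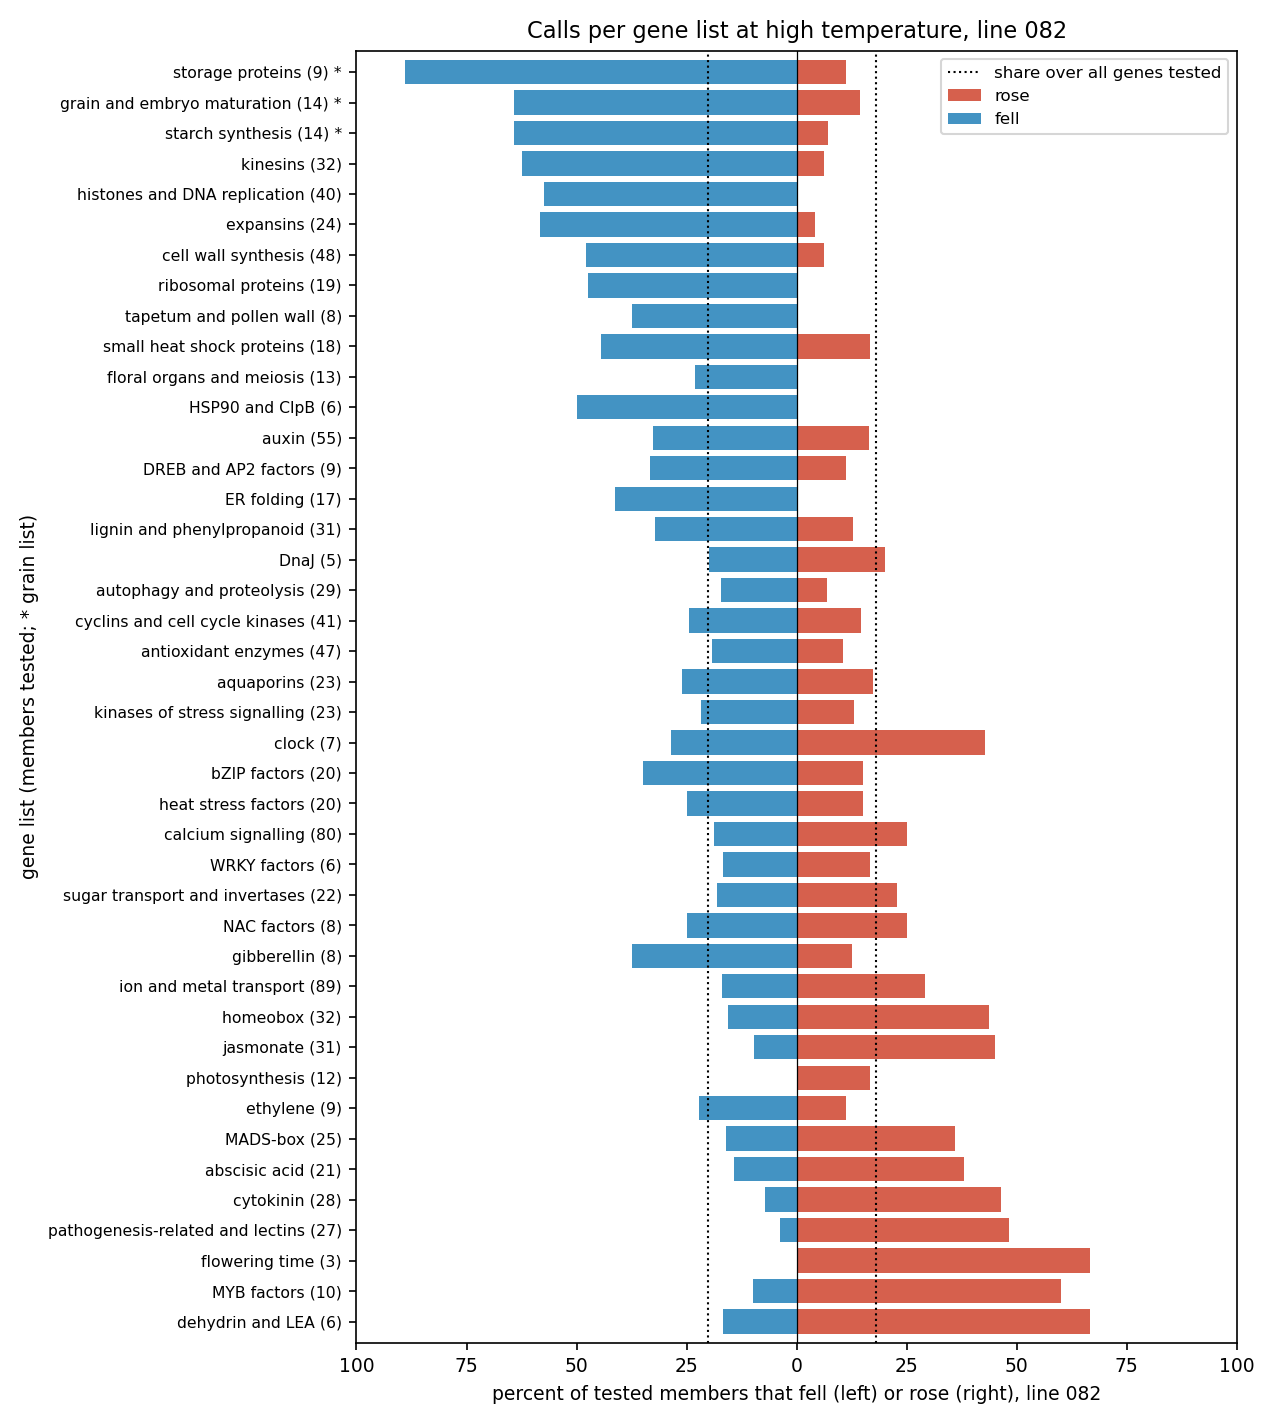
Share of the tested members of each of 42 gene lists that fell (blue, left) or rose (red, right) in line 082, ordered by median change, with the number tested in brackets and dotted lines at the shares over all 16537 genes (20.2% fell, 18% rose). The grain lists, kinesins, DNA replication and expansins hold the largest shares of falls, and dehydrins, MYB factors, defence proteins and cytokinin genes are among those with the largest shares of rises.

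Of 18 small heat shock genes, whose products keep unfolding proteins soluble, 8 fell (44.4%) and 3 rose (16.7%). Of all genes 20.2% fell and 18% rose. HSP26.7, the chloroplast member, had 1352, 1052 and 1857 at optimal and 193, 54.3 and 36.6 at high temperature (−3.93 ± 0.42), and HSP16.9A had 6286, 9459.9 and 10651 and 1468, 927 and 972 (−2.95 ± 0.30). In line 252 HSP16.9A read 759, 452 and 476 and 1287, 1819 and 2839. The high-temperature levels of HSP16.9A were thus closer between the lines than the optimal ones, and the heat changes differed by −4.70 ± 0.43. HSP24.1 (difference −4.73) and HSP16.9B (difference −4.24) differed likewise, and over the list 11 of 18 heat changes were lower and 1 was higher in 082, against 9.69% and 15.5% of all genes. HSP17.9B rose from 5096, 2862 and 2175 to 7504, 7685 and 8725 (1.32 ± 0.33) and HSP23.2 by 1.74 ± 0.42. HSP18.8 rose by 1.304 ± 0.28 (0.98 and no call without replicate 2 at optimal temperature).

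Of 6 HSP90 and ClpB genes 3 fell (50%) and 0 rose, and of 5 DnaJ co-chaperones ERDJ3B fell (20%) and DJA6 rose (20%). The disaggregase gene CLPB1 fell from 1247, 2124 and 2192 to 666, 667 and 695 (−1.39 ± 0.28), where line 252 changed by 0.83 ± 0.28. Of 20 heat stress factors 5 fell (25%) and 3 rose (15%), beside 20.2% and 18% of all genes. HSFA2A (−3.30 ± 0.46) and the class B factor genes HSFB2C (−2.47 ± 0.32), HSFB2B (−2.35 ± 0.44) and HSFB2A (−1.75 ± 0.19) fell, and HSFC2A rose (1.80 ± 0.29). The class B genes had high-temperature means of 289, 59.0 and 1047 in 082 and 317, 83.4 and 1135 in 252.

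Endoplasmic reticulum folding genes had 7 falls (41.2%, beside 20.2% of all genes) and no rise among 17, with a median change of −0.51. In line 252 there were 9 falls, 6 of them also called in 082, and the median was −1.001. PDIL1-4 and PDIL2-3, protein disulfide isomerases, fell by 4.94 ± 0.27 and 4.34 ± 0.27, and both fell by more than in line 252 (differences −4.53 and −1.89). The ER chaperone gene BIP1 went from 16393, 22432 and 23198 to 4448, 3001 and 4433 (−2.39 ± 0.25), and in line 252 it changed by −1.67 ± 0.25. BZIP50, known in rice as the factor that induces ER chaperones under folding stress, fell with them from 1653, 3608 and 2542 to 336, 285 and 311 (−2.94 ± 0.22), and line 252 changed by −1.82 ± 0.22. The summed signal of the endosperm markers, which are grain list genes, fell on the same 082 arrays. The part of endosperm cells in the falls of the ER folding genes was not tested.

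Genes of DNA replication and kinesins fell far more often than they rose, in line 252 too. Of 40 histone and replication genes 23 fell and 0 rose (median −1.41), of 32 kinesins, the microtubule motors of dividing cells among them, 20 fell and 2 rose (median −1.44), and of 41 cyclin and cell cycle kinase genes 10 fell (24.4%) and 6 rose (14.6%), beside 20.2% and 18% of all genes. MET1-2, which copies DNA methylation to the new strand, went from 4962, 6839 and 8568 to 68.4, 38.0 and 38.4 (−6.72 ± 0.24). The helicase gene MCM3 went from 1316, 1231 and 2204 to 42.4, 5.25 and 16.3. The mitotic cyclin gene CYCB1-1 fell by 4.81 ± 0.23 and the kinesin gene KIN10A by 4.75 ± 0.40, with every high-temperature array under every optimal one. In line 252, 26, 23 and 17 genes of these lists fell, beside 22% of all genes. The heat change was higher in 082 for 11 kinesins and lower for 1, beside 15.5% and 9.69% of all genes. In each of CYCB1-1, CYCB2-1 and CYCB2-2 the heat change in 082 was less negative (differences 1.07, 1.16 and 2.17). CYCB2-2 for example had optimal means of 959.6 in 082 and 3432 in 252.

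The list of floral organs and meiosis had 3 falls (23.1%, beside 20.2% of all genes) and no rise among 13: SPO11-4, which makes the breaks that start recombination, fell from 1700.0, 2249 and 3029.5 to 225, 152 and 203 (−3.46 ± 0.38), CRC1 by 2.95 ± 0.44 and MER3 by 2.06 ± 0.35. Of 8 tapetum and pollen wall genes 3 fell (37.5%) and 0 rose. The falls included EAT1 (−2.29 ± 0.38), which controls the death of tapetum cells, and the protease gene AP25 (−3.50 ± 0.77). AP25 was brighter in line 252 at optimal temperature, with a mean of 7210.1 against 383.

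Wall genes fell more often than they rose in line 082. Of 24 expansins, which loosen walls during growth, 14 fell (58.3%) and 1 rose (4.17%), with a median of −1.25. Of 48 wall synthesis genes 23 fell (47.9%) and 3 rose (6.25%), with a median of −1.08. Among all genes 20.2% fell and 18% rose. EXPA5 went from 951, 1543 and 1343 to 34.2, 38.3 and 11.5 (−4.91 ± 0.35), while EXLA1, an expansin-like gene, rose from 2938, 1603 and 1308 to 9740.1, 11892 and 9363 (2.48 ± 0.26). Cellulose synthase genes of the secondary wall fell: CESA7 read 3985, 1590.2 and 2254 and 73.1, 64.6 and 54.3 (−4.94 ± 0.37) and CESA4 fell by 4.83 ± 0.36, with the COBRA-like genes BC1 (−4.94 ± 0.49) and BC1L9 (−4.95 ± 0.36). All of these falls but that of EXPA5 were larger than in 252, with differences of −2.71 for CESA7, −2.86 for CESA4, −2.96 for BC1 and −4.10 for BC1L9. Over the wall synthesis list 10 heat changes were lower in 082 and 4 higher, beside 9.69% and 15.5% of all genes.

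Among 31 genes of lignin and phenylpropanoid synthesis 10 fell (32.3%) and 4 rose (12.9%), beside 20.2% and 18% of all genes. CHS, the entry enzyme of flavonoid synthesis, fell from 8870.3, 5907 and 7553 to 186, 98.7 and 126 (−5.63 ± 0.34), the laccase gene LAC10 by 5.25 ± 0.42, and the phenylalanine ammonia-lyase gene PAL06, which opens the whole route, by 4.01 ± 0.64. Another laccase gene, LAC7, rose by 2.89 ± 0.37 and differed from line 252 (2.35 ± 0.52).

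Water channels were mixed, with 6 falls (26.1%) and 4 rises (17.4%) among 23 aquaporins, beside 20.2% and 18% of all genes. PIP2-7, of the plasma membrane, fell from 5901, 2034 and 1149 to 42.3, 7.07 and 33.8 (−5.90 ± 0.55), as in line 252 (−7.30 ± 0.55), and TIP3-2 fell by 5.36 ± 0.41. TIP2-2 rose by 1.496 ± 0.36. TIP4-1 rose in 082 (1.59 ± 0.21) and fell in 252 (−2.98 ± 0.21): its optimal means were 750.0 and 13671 and its high-temperature means 2382 and 1711.

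Of 19 ribosomal protein genes 9 fell (47.4%) and 0 rose, with a median of −0.96. The number of falls ran from 5 after centring on the 75th percentile to 13 after scaling to the spikes. RPL5 fell by 1.88 ± 0.20 and rps20 by 1.78 ± 0.14. Of 29 genes of autophagy and proteolysis 5 fell (17.2%) and 2 rose (6.90%), beside 20.2% and 18% of all genes. RPT1A, an ATPase subunit of the proteasome, went from 1285, 2290.3 and 2147 to 163, 259.8 and 260.1 (−2.96 ± 0.24), and the ubiquitin-conjugating enzyme gene UBC5B fell by 2.49 ± 0.17; line 252 gave −0.67 ± 0.24 and −0.03 ± 0.17, and both differences passed.

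Defence genes were among those that rose. In the list of pathogenesis-related proteins and lectins 13 of 27 rose (48.15%) and 1 fell (3.70%), with a median of 1.11. Of all genes 18% rose and 20.2% fell. Line 252 had 4 rises and 9 falls in the list, beside 11.3% and 22% of all genes. The heat change was higher in 082 for 13 members and lower for 1, beside 15.5% and 9.69% of all genes. ML, a mannose-binding lectin also named salT, had 1204, 867 and 824 at optimal and 28004, 23917 and 21274 at high temperature (4.65 ± 0.22; adjusted p = 1.8e-08). NH1, the rice relative of the salicylic acid receptor NPR1 of Arabidopsis, rose from 157, 215 and 87.1 to 1064, 1174 and 1762 (3.04 ± 0.36), where line 252 changed by 0.32 ± 0.36. The optimal mean of NH1 was 153 in 082 and 758 in 252, and the high-temperature means were 1333 and 926. GER2, a germin-like wall protein gene, rose from 107, 120.0 and 79.7 to 17620.0, 2178 and 1444 (5.03 ± 0.70), and its relative GER8 was the member that fell (−2.31 ± 0.43). RBBI3.3, a Bowman-Birk protease inhibitor gene outside the list, rose from 1826, 1687 and 1300.1 to 16625, 15519 and 19597 (3.42 ± 0.18), by more than in 252 (difference 2.34 ± 0.26).

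Jasmonate genes rose in 14 (45.2%) and fell in 3 (9.68%) of 31 cases, beside 18% and 20.2% of all genes. Line 252 had 3 rises and 3 falls, beside 11.3% and 22% of all genes there. Of the heat changes 11 were higher in 082 and 3 lower, beside 15.5% and 9.69% of all genes. JAZ11, a repressor that jasmonate itself induces, read 546, 387 and 325 and 3846, 4471 and 6329 (3.49 ± 0.27), and JAZ5 read 32.2, 12.9 and 6.56 and 261, 174 and 270.3 (2.97 ± 0.30). Both differed from line 252 (differences 1.59 ± 0.38 and 3.52 ± 0.42). The synthesis gene AOS3 rose by 2.91 ± 0.41. JAR1, whose enzyme makes the active jasmonate-isoleucine, fell by 2.36 ± 0.32, as did JAZ2 (−2.24 ± 0.55) and OPR12 (−2.72 ± 0.42).

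Cytokinin genes rose in 13 (46.4%) and fell in 2 (7.14%) of 28 cases (median 0.92), beside 18% and 20.2% of all genes. RR4, a response regulator gene that cytokinin induces, went from 670.0, 449.6 and 387 to 2772, 2593 and 2453 (2.37 ± 0.21), and RR23, of the other regulator class, from 663, 421 and 294 to 2129, 1964 and 2144 (2.21 ± 0.23). The heat change of RR4 exceeded that in line 252 by 1.23 ± 0.30. RR41 (−3.15 ± 0.76) and RR33 (−3.53 ± 0.63) fell. In line 252 the list had 7 rises, all of them also called in 082, and 6 falls, beside 11.3% and 22% of all genes.

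Abscisic acid genes gave 8 rises (38.1%) and 3 falls (14.3%) among 21, beside 18% and 20.2% of all genes. The kinase gene SAPK6 went from 985, 655 and 642 to 3074, 2684 and 3568 (2.03 ± 0.18) and SAPK1 rose by 1.74 ± 0.21, while SAPK7 fell by 2.72 ± 0.25 and SAPK3 by 1.46 ± 0.18. ABF2, a bZIP factor that binds abscisic acid response elements, rose by 1.83 ± 0.28, and in line 252 by 2.69 ± 0.28. Dehydrin and LEA genes, targets of this hormone, had 4 rises (66.7%) and 1 fall (16.7%) among 6. RAB16D rose from 259.7, 113 and 125 to 2967, 3611 and 1469.8 (3.88 ± 0.45), RAB16C by 1.92 ± 0.38 and LIP9 by 1.73 ± 0.29. LEA19 fell, from 8768, 9104 and 11723 to 2071, 4744 and 4998 (−1.41 ± 0.27), but rose in line 252 from 177, 166 and 157 to 1917, 2446 and 2476.

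Auxin genes fell in 18 (32.7%) and rose in 9 (16.4%) of 55 cases, beside 20.2% and 18% of all genes. SAUR39, of a family that auxin induces quickly, rose from 426, 224 and 138 to 4091, 5668 and 4466 (4.22 ± 0.38), and the Aux/IAA repressor gene IAA6 rose by 3.35 ± 0.38, while IAA14 (−3.01 ± 0.47) and IAA20 (−2.94 ± 0.58) fell. Of 9 ethylene genes 2 fell (22.2%) and 1 rose (11.1%). The receptor genes ETR4 (−3.45 ± 0.46) and ETR3 (−1.92 ± 0.31) fell and the transcription factor gene EIL1A rose (2.24 ± 0.24). Gibberellin genes had 3 falls (37.5%) and 1 rise (12.5%) among 8, led by SLRL1 (−2.74 ± 0.36), a relative of the growth repressor SLR1.

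**Figure D4:**
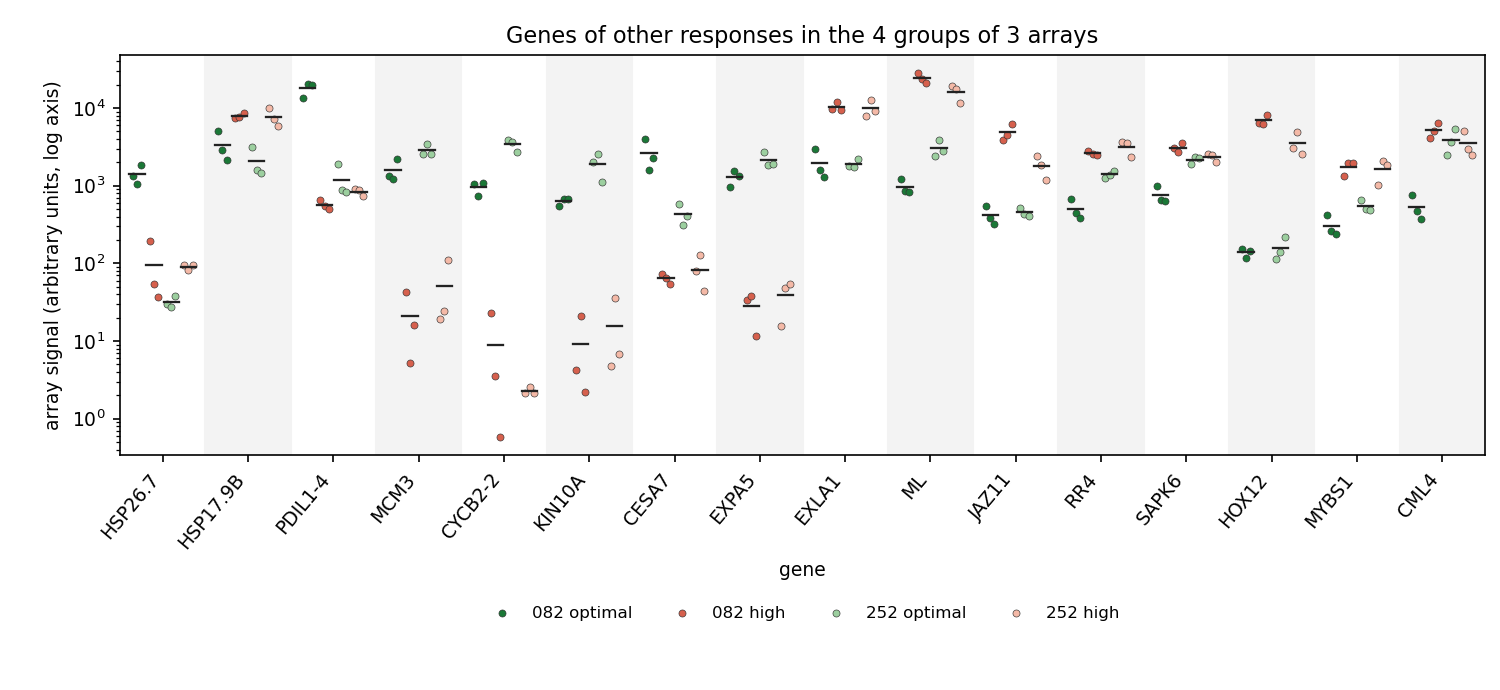
Array signal (log axis) of 16 genes outside the grain lists, each point 1 array and each bar the mean of 3, in the 4 groups. HSP26.7 and PDIL1-4 are highest on the 082 optimal arrays, MCM3, CYCB2-2 and KIN10A are low on all 6 high-temperature arrays of both lines, and ML, JAZ11 and HOX12 are higher on all high-temperature arrays than on all optimal ones.

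Homeobox genes rose in 14 (43.75%) and fell in 5 (15.6%) of 32 cases, beside 18% and 20.2% of all genes. The homeodomain-leucine zipper genes HOX12, hox14 and HOX7 led: HOX12 went from 155, 119 and 143 to 6383, 6212 and 8207 (5.48 ± 0.26), hox14 from 186, 205 and 67.0 to 2479.7, 3013 and 2818 (4.17 ± 0.36) and HOX7 from 276, 237 and 278 to 1849.7, 3292 and 4041 (3.39 ± 0.27). HOS59 rose by 2.49 ± 0.27. HOX12 (difference 1.16) and HOS59 (difference 1.82) rose by more than in line 252, and for hox14 (1.003 ± 0.52; adjusted p = 0.16) the difference was not called. HOX33 (−1.77 ± 0.41), HOX2 (−1.76 ± 0.24) and HOX10 (−1.32 ± 0.20) fell, though another probe set of HOX10 rose by 1.76.

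MYB factors rose in 6 (60%) and fell in 1 (10%) of 10 cases, beside 18% and 20.2% of all genes. MYBS1 and MYBS3, which in rice act on alpha-amylase promoters, rose from 416, 259 and 239 to 1346, 1953 and 1966 (2.49 ± 0.28) and by 1.86 ± 0.21, also in line 252 (1.503 ± 0.28 and 1.99 ± 0.21). Another probe set of MYBS3, with means of 1589 and 1323 in 082, was not called (−0.25 ± 0.14). In the bZIP list 7 of 20 fell (35%) and 3 rose (15%), with TGAL1 ahead, from 591, 323 and 204 to 4993, 6111 and 5219 (3.93 ± 0.29). AP2-1 also carries the name RSR1 and is known in rice as a repressor of starch synthesis genes. It rose from 402, 268 and 451 to 1634, 2159 and 2575 (2.46 ± 0.21), and its difference from line 252 was 2.21 ± 0.30. In its list 1 of 9 rose (11.1%) and 3 fell (33.3%).

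Of 25 MADS-box genes 9 rose (36%) and 4 fell (16%), and the rises numbered 5 after scaling to the spikes. MADS26 rose from 284, 142 and 79.9 to 1694, 1365 and 854 (2.94 ± 0.40), and line 252 gave 0.19 ± 0.40. MADS22 (−3.86 ± 0.53), MADS27 (−3.72 ± 0.39), MADS21 (−2.73 ± 0.50) and MADS55 (−2.69 ± 0.39) fell. Of 8 NAC genes 2 rose (25%) and 2 fell (25%), beside 18% and 20.2% of all genes. Of 6 WRKY genes 1 rose and 1 fell (16.7% each). NAC048 (1.74 ± 0.20), NAC068 (1.79 ± 0.24) and WRKY71 (1.63 ± 0.41) rose, and NAC067 (−1.81 ± 0.39) and WRKY76 (−2.75 ± 0.28) were among those that fell.

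Clock genes had 3 rises (42.9%) and 2 falls (28.6%) among 7, beside 18% and 20.2% of all genes. The morning gene CCA1 rose from 16456, 10869 and 8655 to 28759, 30437 and 25628 (1.28 ± 0.32), and in line 252 from 600.3, 1377 and 1758 to 28552, 30535 and 27185. PCL1, an evening gene, fell from 229, 211 and 354 to 48.6, 85.5 and 51.1 (−1.85 ± 0.35), and in line 252 from 5497, 7034 and 8158 to 11.1, 49.95 and 49.1. The lines were thus near each other at high temperature and apart at optimal temperature for both genes. HD2, a pseudo-response regulator that delays flowering in long days, rose by 1.62 ± 0.19 and the photoreceptor gene PHYB1 by 1.61 ± 0.16. Another probe set of HD2 was not called (−0.57 ± 0.29).

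Transport genes for ions and metals rose in 26 (29.2%) and fell in 15 (16.9%) of 89 cases, beside 18% and 20.2% of all genes. Line 252 had 11 rises and 20 falls, near its shares of 11.3% and 22% over all genes. Of the heat changes 20 were higher and 6 lower in 082, beside 15.5% and 9.69% of all genes. MT4C, a metallothionein gene, rose from 82.2, 28.1 and 14.4 to 453, 558 and 586 (3.42 ± 0.54). The falls were led by VIT1.2 (−4.95 ± 0.74), a vacuolar iron carrier, and NAS2 (−4.93 ± 0.72) and NAS3 (−4.47 ± 0.51), whose enzymes make the metal chelator nicotianamine. HAK17, a potassium transporter gene, did not pass in 082 (0.01 ± 0.29) and fell in 252 (−4.09 ± 0.29).

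Sugar carriers and invertases, a list that shares SWEET4, SWEET11, SWEET15 and CIN2 with the grain genes, had 5 rises (22.7%) and 4 falls (18.2%) among 22, beside 18% and 20.2% of all genes. MST3, a monosaccharide carrier, rose from 1203, 554 and 449 to 6313, 5587 and 8399 (3.28 ± 0.37) where line 252 changed by −0.92 ± 0.37. The invertase gene CIN4 rose by 2.14 ± 0.36, and SWEET5 fell by 2.08 ± 0.37. Calcium signalling genes rose in 20 (25%) and fell in 15 (18.8%) of 80 cases, beside 18% and 20.2% of all genes. That balance turned to 13 rises and 19 falls after scaling to the spikes. The calmodulin-like gene CML4 rose from 757, 477 and 378 to 4146, 5146 and 6525 (3.29 ± 0.33), CBL9 by 2.92 ± 0.25 and CML1 by 2.88 ± 0.39. CML4 (difference 3.42) and CML1 (difference 3.46) differed from line 252. Among 23 kinases of stress signalling 5 fell (21.7%) and 3 rose (13%), beside 20.2% and 18% of all genes, with MPK2 falling from 1295, 3289 and 2437 to 77.2, 57.3 and 87.3 (−4.63 ± 0.30) and MPK4 rising by 1.82 ± 0.22.

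Antioxidant enzymes had 9 falls (19.1%) and 5 rises (10.6%) among 47, beside 20.2% and 18% of all genes. The glutaredoxin genes GRXC1 (3.80 ± 0.49) and GRXC10 (3.45 ± 0.59) rose, and GRXS3 fell (−3.65 ± 0.37). Catalase CAT-A rose by 1.58 ± 0.20 and the ascorbate peroxidase gene APX8 by 1.59 ± 0.29. Of 12 photosynthesis genes 2 rose (16.7%, beside 18% of all genes) and 0 fell. The photosystem I gene PSAG rose from 3855, 2233 and 1266 to 7622, 7427 and 6230.5 (1.66 ± 0.33).

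Named genes in no list also stood among the largest rises. ICL, the isocitrate lyase that lets cells turn fat into sugar, rose from 69.4, 22.9 and 22.1 to 480.4, 1000.1 and 577 (3.74 ± 0.65). OsCASPL1D1, of a family of membrane proteins that shape wall deposition, rose by 4.01 ± 0.35 and pinA from 1396, 1173 and 1264 to 20341, 20746 and 21245 (4.01 ± 0.11), and both differed from line 252 (3.36 and 3.31).

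The largest positive differences between the heat changes of the lines, 082 minus 252, belonged to genes that were brighter in line 252 than in 082 at optimal temperature. For CIPK10, a calcium-regulated kinase gene (4.71 ± 0.30), the 252 arrays read 3382, 2658 and 3133 at optimal temperature and the 082 arrays 172, 162 and 102. Its rise in 082 (1.11 ± 0.21) was not called on leaving out the third array at high (0.97) or at optimal temperature (0.90). CM-LOX1, a chloroplast lipoxygenase gene, did not pass in 082 (−0.13 ± 0.72) and fell in 252 (−5.24 ± 0.72). LIR1, a light-induced gene (4.08 ± 0.38), GLT2 (4.55 ± 0.60) and DTS2, a diterpene synthase gene (4.26 ± 0.84), each rose in 082 and changed by −2.30, −2.41 and −1.17 in 252. The blast resistance gene Pi21 (4.08 ± 0.83) rose in 082 by 1.90 ± 0.59, a call lost without replicate 2 at high temperature (1.67), replicate 3 at high (1.76) or replicate 2 at optimal temperature (1.75).

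Many of the largest changes belonged to genes without a name in the table used, and these were chosen after their values were seen. A probe set with no gene in the annotation went from 4.14, 2.75 and 6.84 to 2328, 2830.0 and 1458 (6.71 ± 0.31) and stayed dim in line 252, at 1.72, 2.48 and 4.77 and 14.8, 3.57 and 10.4. LOC4329812 rose by 6.67 ± 0.67 in 082 and by 5.00 ± 0.67 in 252. LOC4329275 fell from 28044, 31867 and 30701 to 2.55, 2.40 and 3.41 (−10.65 ± 0.47), while its 252 arrays read 1.19, 1.90 and 1.97 at optimal and 127, 22.7 and 8.14 at high temperature, a called rise (1.53 ± 0.47). Another probe set of this gene was not called in 252 (1.34 ± 0.59).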

How the data were processed

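Panicle RNA of 12 samples was read on an Affymetrix rice array. The authors deposited 1 linear intensity per probe set and sample, and the submitters' processing notes name MAS5, with no version or settings. All 12 columns were matched to samples by title. Of 57381 probe sets, 187 controls were left out, and 33610 above the array median in at least 3 of the 12 arrays were tested. The log2 of signal plus 16 was fitted with limma 3.58.1 (R 4.3.3) as 4 group means with an intensity trend, contrasts were adjusted by Benjamini-Hochberg over all probe sets, and calls required an adjusted p below 0.05 with a log2 change of 1 or more. Adjusted p-values in the text, those of named genes included, come from this fit over 33610 probe sets. Each gene is represented by its probe set with the highest mean log2 value. In the annotation 22436 probe sets had 1 gene, 95 had several and 34850 had none, and names follow the RefSeq table of assembly ASM3414082v1. Summaries used Python 3.11.15.

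The members, lists and tests were chosen with earlier results of these data known, and some genes were removed from lists for their symbols alone. The genes named were drawn from a set given by rule, not all of which is described: every grain list member, up to 4 members with the largest called changes of each other list, every member called in a direction with 5 or fewer calls, and, among all named genes, the 15 largest rises, the 15 largest falls and the 10 largest differences between lines in each direction. Same-numbered 082 arrays at the 2 temperatures had deviations correlating at −0.045, −0.019 and 0.044, so the numbers do not pair samples. The fit was tested on simulated data. There a change was added to 200 of 33610 probe sets. Of changes of 1.5 on the log2 scale, 51.5% were called in the 082 heat contrast and 29.5% in the difference between lines. At a change of 3.0 the shares were 90% and 71.5%. In the arrays themselves far more probe sets were called, 4788 rises and 7353 falls in line 082. The adjustment of p depends on how many probe sets change, so these shares hold for the simulated setting only. A missing call still does not show that a change was absent. Alternatives covered scaling, the constant added, the filter, the variance model, the replicate block, the probe set per gene and each array left out. The number of arrays limits the precision. No promoter or protein sequences were used here.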

Additional observations from a re-analysis of the deposited data

Results flagged for a closer look

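The heat changes of the lines differed at 7828 probe sets by the interaction contrast in limma. Among named genes the largest positive differences, 082 minus 252 on the log2 scale, were those of PCL1 (5.28), CM-LOX1 (5.11), CIPK10 (4.71), TIP4-1 (4.57), GLT2 (4.55), DTS2 (4.26), MST3 (4.20), HAK17 (4.11), Pi21 (4.08) and LIR1 (4.08). The largest negative ones were those of GLUA-1 (−11.05), GLUD-1 (−10.74), GLUA-3 (−9.91), RA17 (−9.79), GLUB-5 (−9.63), RA14 (−9.01), RA5 (−8.91), PROLM25 (−8.56), TIP3-1 (−8.50) and R1C-Prx (−7.83), of which all but TIP3-1 belong to the grain lists.

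Outside the genes of rice, the mean 3′/5′ ratio of the added Dap control was 14.3 on the 082 high-temperature arrays, above every optimal array of either line, and its part in the heat changes was not tested.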

How the results depend on the processing

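Counts of calls in line 082 stayed within 1.5 times of 4788 rises and 7353 falls under most settings, with these exceptions. Without a minimum change 8307 probe sets rose. With the filter at the 75th percentile 3484 fell, and 5069 heat changes differed between the lines against 7828. With 1 probe set per gene 2981 rose, 3351 fell and 4216 differed, and with the probe sets of a gene averaged the counts were 2780, 3436 and 4159; here fewer features were tested. Leaving out 1 array in turn gave 4164 to 5576 rises, 6704 to 7612 falls and 6730.0 to 8849 differences. With the replicate number as a block 4790 probe sets rose and 7322 fell, and 7680 heat changes differed. Scaling to the hybridization spikes turned 4128 higher and 3700 lower heat changes in 082 into 6976 and 2339. The cause of these shifts was not tested. Of 227 named genes called in 082, 199 kept their call in all 24 refitted settings and 0 reversed. Of 2016 list counts, 81 moved by over 1.5 times. Falls to signals near background are limited in size by the constant added: GBSS-I changed by −11.065 with 1 and −8.68 with 64.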
